A study of Mus musculus with 9 samples.

Results

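Chemokine receptors differed between macrophage lines grown from bone marrow (BM lines) and lines of embryonic origin, which came from the yolk sac (YS lines) or the liver of the fetus (FL lines), and they did so in both directions. Cxcr4 and Cxcr3 were higher in BM lines, whereas Ccrl2 was higher in YS and FL lines, and Ccr1 and Ccr2 were higher in YS than in BM lines, while their differences of FL lines from BM lines and from YS lines did not pass the test. The 8 genes examined are Ccr1, Ccr2, Ccr3, Ccr7, Ccrl2, Cx3cr1, Cxcr3 and Cxcr4, picked by symbol from the 24411 genes of the table as a set of chemokine receptors of leukocytes. Of these 8, 6 reached 1 TPM, a transcript abundance corrected for length, in 3 or more of the 9 libraries and were tested. Ccr3 and Ccr7 did not reach that level and are given as values.

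The RNA came from macrophage lines of C57BL/6 mice, with 3 lines from each of the 3 tissues and 1 library per line. The yolk sacs were taken at E9.5, the fetal livers at E14.5 and the marrow from adult mice, and all lines were carried in medium with M-CSF, the growth factor of macrophages, on which they depend. A line here is the bulk culture of a separate dish or well grown from cells pooled from several mice, so it is neither a clone nor an animal, and the p-values measure the spread between such lines. The paper does not say whether the 3 lines of a group came from separate pools, so variation between pools or animals may not be covered. No group was treated further, and tissue of origin and age at collection cannot be told apart. Seeding density and the time to stable growth also differed by origin, and yolk sac cells were started in smaller wells. These differences cannot be told apart from origin either.

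All 9 lines carried the 10 macrophage markers examined, and Csf1r, the M-CSF receptor, was between 1086 and 2441 TPM. YS line 1 was the line least like the others of its group, and BM line 2 stood closer to YS line 2 (r = 0.934 across tested genes) than BM lines 1 and 3 did (r = 0.893 and 0.886). A set of 45 genes reached 20 TPM in YS line 2 while staying below 0.5 TPM in BM lines 1 and 3, and their median level in BM line 2 was 14.1% of that in YS line 2. No other embryonic line was examined in this way, so a likeness particular to YS line 2 is not shown. In deviations from the group means, BM line 2 was also the BM line most like YS line 3, FL line 1 and FL line 3. Results that rest on YS line 1 or BM line 2 are therefore also given without it. TPM keeps no read number and depth is therefore unknown, so precision was judged from the spread of lines within groups. The fit shared this spread over the 3 groups, so YS lines also affect the intervals for FL against BM lines.

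Chemokine receptors are membrane proteins with 7 helices that couple to Gi proteins when a chemokine binds, and they steer migrating leukocytes along the gradient of that ligand. Cxcr4 binds Cxcl12 and holds hematopoietic cells in the marrow, Ccr2 is needed for monocytes to leave it, and Cx3cr1 marks microglia, many resident macrophages and patrolling monocytes. Ccrl2 is an atypical member that binds chemerin without driving migration itself.

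The DNA around the start sites of the receptors that differed is shown first, because these genes moved in opposite directions and their start sites differ in make-up. Each window runs from 250 bases before to 50 bases after the start in RefSeq on GRCm38.p6, is printed 5′ to 3′ on the strand of the gene, and has motif matches in capitals. Both strands were searched. The TATA box, which positions the start of transcription, was searched as TATAAA. The GC box, to which Sp1 binds, was searched as GGGCGG. The core of sites of PU.1, the master regulator of macrophages, was searched as GAGGAA. A core of NF-kappa-B sites was searched as GGACTTTCC. These motifs were chosen after the sequences had been seen.
Cxcr4, chr1:128592250-128592549, minus strand: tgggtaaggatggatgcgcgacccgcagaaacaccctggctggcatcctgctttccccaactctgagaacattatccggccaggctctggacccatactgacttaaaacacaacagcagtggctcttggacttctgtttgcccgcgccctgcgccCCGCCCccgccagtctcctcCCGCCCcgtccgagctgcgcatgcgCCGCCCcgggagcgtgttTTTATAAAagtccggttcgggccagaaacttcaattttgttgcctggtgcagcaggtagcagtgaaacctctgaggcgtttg
Cxcr3, chrX:101734098-101734397, minus strand: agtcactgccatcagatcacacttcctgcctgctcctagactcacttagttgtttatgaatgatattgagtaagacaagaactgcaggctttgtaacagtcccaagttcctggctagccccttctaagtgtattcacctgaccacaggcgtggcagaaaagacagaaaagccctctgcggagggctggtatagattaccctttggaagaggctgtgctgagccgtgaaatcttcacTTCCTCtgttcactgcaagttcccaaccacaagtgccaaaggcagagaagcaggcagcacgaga
Ccrl2, first of 3 listed starts, chr9:111057469-111057768, minus strand: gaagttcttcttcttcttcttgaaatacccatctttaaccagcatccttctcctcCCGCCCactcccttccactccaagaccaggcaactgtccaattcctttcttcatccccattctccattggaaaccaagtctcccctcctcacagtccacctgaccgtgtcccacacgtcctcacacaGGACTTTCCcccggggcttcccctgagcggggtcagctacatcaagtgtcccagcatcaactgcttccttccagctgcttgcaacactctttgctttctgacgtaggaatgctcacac
Ccr1, chr9:123968643-123968942, minus strand: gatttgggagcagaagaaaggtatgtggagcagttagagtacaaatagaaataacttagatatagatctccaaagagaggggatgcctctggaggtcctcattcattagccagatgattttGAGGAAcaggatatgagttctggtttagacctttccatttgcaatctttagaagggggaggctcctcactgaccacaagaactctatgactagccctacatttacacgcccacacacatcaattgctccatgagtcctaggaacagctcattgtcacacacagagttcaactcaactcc
Ccr2, chr9:124101933-124102232, plus strand: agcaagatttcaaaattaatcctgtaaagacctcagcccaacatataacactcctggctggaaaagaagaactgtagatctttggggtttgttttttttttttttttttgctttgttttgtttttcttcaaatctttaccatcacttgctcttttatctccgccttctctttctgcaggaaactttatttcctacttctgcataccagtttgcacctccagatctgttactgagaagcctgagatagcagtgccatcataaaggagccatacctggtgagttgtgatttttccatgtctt

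The Cxcr4 window was the richest of these in G and C, at 59.3%, against a median of 52.7% over all 32851 windows, and the Ccr2 window was the poorest at 38.0%. The windows of Ccrl2, Cxcr3 and Ccr1 held 53.0%, 49.3% and 44.0%. The Cxcr4 window held TATAAA 30 bases before the start, overlapped by its opposite-strand form at 32 bases, and 3 GC boxes on the opposite strand at 95, 75 and 50 bases. The printed Ccrl2 window, that of the first of 3 listed starts, held a GC box 195 bases and the kappa-B core 68 bases before the start. The windows of its other listed starts held none of the letters searched. A PU.1 core stood 129 bases before the start of Ccr1 and, on the opposite strand, 14 bases before that of Cxcr3, while none of the letters searched was present in the Ccr2 window. Over all windows, the TATA box letters were found in 13.6%, the GC box in 35.7%, the PU.1 core in 28.3% and the kappa-B core in 0.344%. These matches are a description of the letters and say nothing of binding in these cells.

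**Figure D1:**
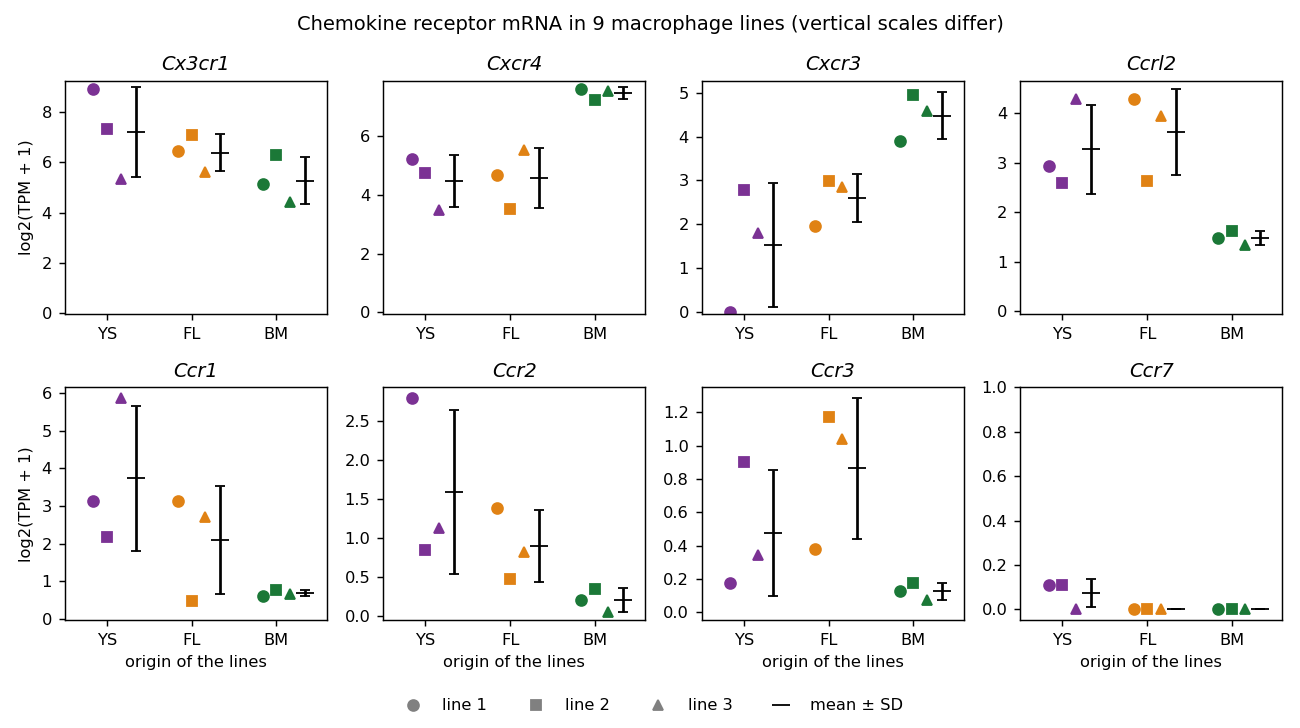
Levels of the 8 receptors as log2(TPM + 1) in each YS, FL and BM line (points; shape gives the line number) with the mean ± SD of the 3 lines of each group (black), on a separate vertical scale for each gene. Every BM line lies above all 6 embryonic lines for Cxcr4 and Cxcr3 and below all 6 for Ccrl2 and Ccr2, whereas Cx3cr1 and Ccr1 spread widely within the YS lines.

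Cxcr4, the receptor of Cxcl12, was several-fold higher in BM lines than in either embryonic group. The BM lines had 192.41, 146.75 and 183.07 TPM, the YS lines 35.71, 25.39 and 10.19 TPM, and the FL lines 24.38, 10.44 and 44.75 TPM. The lowest BM line stood well above the highest embryonic line, FL line 3, and the YS and FL lines lay in the same range. Group means (± SD, n = 3) were 174 ± 24.1 TPM for BM, 23.8 ± 12.8 TPM for YS and 26.5 ± 17.3 TPM for FL lines, so that the BM mean was 7.33-fold the YS mean and 6.57-fold the FL mean. On the log2(TPM + 1) scale, on which all tests were made and which understates changes of low genes, Cxcr4 was lower in YS than in BM lines by a log2 difference of -2.97 (SE 0.54, adjusted p = 0.00663) and lower in FL than in BM lines by -2.88 (SE 0.54, adjusted p = 0.00759). Adjusted p-values are from limma with Benjamini-Hochberg adjustment over all 11753 tested genes, and a gene was called at a false discovery rate under 0.1 with more than a 2-fold difference. Both comparisons share the BM lines and are not independent. Cxcr4 passed in both comparisons under each of the 19 alternative settings and left-out lines, with log2 differences between -3.34 and -2.48 for YS lines and between -3.35 and -2.35 for FL lines.

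Cxcr3, the receptor of Cxcl9, Cxcl10 and Cxcl11 and best known from activated T cells and NK cells, was also higher in BM lines. The BM lines had 13.86, 30.00 and 23.20 TPM and the FL lines 2.90, 6.88 and 6.17 TPM, while YS line 1 was listed at 0 and YS lines 2 and 3 had 5.85 and 2.47 TPM. No embryonic line reached the level of a BM line. The BM mean of 22.4 ± 8.10 TPM was 4.20-fold the FL mean of 5.32 ± 2.12 TPM (SD, n = 3 each). The log2 difference was -2.96 (SE 0.64, adjusted p = 0.0126) for YS against BM lines and -1.89 (SE 0.64, adjusted p = 0.073) for FL against BM lines. Without YS line 1, where the gene was listed at 0, the difference of YS lines was -2.20 (adjusted p = 0.0129). The call for YS lines held under each of the 19 alternatives, but that for FL lines held under 10 of 19 and was lost when any FL or BM line was left out, with adjusted p-values of 0.106 to 0.196. It was kept without YS line 1 (adjusted p = 0.0119) and when only FL and BM lines were fitted (adjusted p = 0.0116). Of the 8 T and NK cell markers examined, 5, including Cd3d, Cd3e and Cd3g, were listed at 0 in all 9 lines. The 8 together summed to 0.94 to 2.18 TPM in BM, 1.99 to 4.65 TPM in YS and 0.76 to 3.15 TPM in FL lines. The part of such cells in the difference of Cxcr3 was not tested.

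Ccrl2, the atypical receptor of chemerin, was low in BM lines and higher in every embryonic line. The BM lines had 1.80, 2.09 and 1.55 TPM, the YS lines 6.6, 5.06 and 18.54 TPM, and the FL lines 18.43, 5.19 and 14.46 TPM. YS line 3, FL line 1 and FL line 3 were the high ones, and the other embryonic lines were still above all BM lines. The log2 difference was 1.78 (SE 0.51, adjusted p = 0.0332) for YS against BM lines and 2.13 (SE 0.51, adjusted p = 0.0207) for FL against BM lines. Under the 19 alternatives the FL call held each time, and the YS call was lost without BM line 3 (adjusted p = 0.102). In bulk RNA, a higher level from more cells with the transcript and from more RNA per cell cannot be told apart.

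Ccr1, a receptor of Ccl3, Ccl5, Ccl6 and Ccl9, varied widely within the embryonic groups and was uniformly low in BM lines. The YS lines had 7.78, 3.53 and 58.24 TPM, the FL lines 7.72, 0.37 and 5.58 TPM, and the BM lines 0.52, 0.69 and 0.58 TPM. All YS lines were above the BM lines, with a 16.5-fold range among them and the highest value in YS line 3, whereas FL line 2 was below every BM line. The log2 difference of YS against BM lines was 3.06 (SE 0.96, adjusted p = 0.0442), with a 95% confidence interval of 0.88 to 5.24. As no BM line reached 1 TPM, Ccr1 entered the test through the YS lines and FL lines 1 and 3, where it is higher. Without YS line 3 the difference was 1.98 (adjusted p = 0.0793), and the call was lost without BM line 1 (adjusted p = 0.117) or BM line 3 (adjusted p = 0.115). For FL against BM lines the log2 difference was 1.43 (95% interval -0.75 to 3.60, adjusted p = 0.336), which did not pass.

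Ccr2, the receptor of Ccl2, Ccl7 and Ccl12 on inflammatory monocytes, was low in every group. The YS lines had 5.94, 0.80 and 1.19 TPM, the FL lines 1.63, 0.40 and 0.78 TPM, and the BM lines 0.16, 0.28 and 0.04 TPM. All embryonic lines were above all BM lines, but only YS lines 1 and 3 and FL line 1 reached 1 TPM, so the gene entered the test through the groups where it is higher. Its log2 difference was 1.38 (SE 0.49, adjusted p = 0.0679) for YS against BM lines and 0.70 (95% interval -0.43 to 1.82, adjusted p = 0.365) for FL against BM lines. The YS call rested on YS line 1, without which the difference was 0.78 (adjusted p = 0.112), and it held under 11 of the 18 alternatives that could be fitted. Of 5 monocyte markers, 2, including Chil3, were listed at 0 in all lines, and the 5 summed to 1.05 to 5.6 TPM for YS, 0.02 to 31.33 TPM for FL and at most 0.61 TPM for BM lines. The highest sum came from Fn1 in FL line 2, the embryonic line with the lowest Ccr2, and the part of such cells in the difference of Ccr2 was not tested.

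Cx3cr1, the fractalkine receptor, was the most abundant of the 8 receptors per unit of transcript length in all embryonic lines but YS line 3, but did not pass the test in any comparison. The YS lines had 491.71, 162.15 and 39.71 TPM, the FL lines 86.84, 135.13 and 48.77 TPM, and the BM lines 34.02, 76.81 and 20.39 TPM. YS line 1 was far above the other lines, and BM line 2 overlapped with the embryonic lines: YS line 3 and FL line 3 were below it. The YS lines spanned a 12.4-fold range, and an embryonic line was above a BM line in 8 of 9 pairs of lines in either comparison. The log2 difference was 1.94 (95% interval -0.0033 to 3.88, adjusted p = 0.122) for YS against BM lines, 1.12 (-0.82 to 3.06, adjusted p = 0.404) for FL against BM lines and 0.82 (-1.12 to 2.76, adjusted p = 0.57) for YS against FL lines. Without BM line 2 the difference of YS from BM lines was 2.44 (adjusted p = 0.105), without YS line 1 it was 1.07 (adjusted p = 0.307), and without YS line 3 it was 2.87 and passed (adjusted p = 0.0219).

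Ccr3, the eotaxin receptor of eosinophils, and Ccr7, which guides dendritic cells and T cells to lymph nodes, were near the bottom of the scale. For Ccr3, the YS lines had 0.13, 0.87 and 0.27 TPM, the FL lines 0.30, 1.25 and 1.06 TPM and the BM lines 0.09, 0.13 and 0.05 TPM. All FL lines were above all BM lines (exact two-sided permutation test, p = 0.1, the smallest p that 3 lines against 3 allow). Ccr7 was 0.08 TPM in YS lines 1 and 2 and was listed at 0 in the other 7 lines.

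In counts, 5 of the 6 tested receptors were called for YS against BM lines, in a comparison that called 12.8% of all tested genes. Of these receptors 3 were higher in YS lines, as were 7.57% of all tested genes, and 2 were lower, as were 5.22%. Among those 3, Ccr1 and Ccr2 passed the filter only through embryonic lines, where they are higher. The counts and medians given here include them, and the receptors were chosen with earlier results of these data known. Setting the counts beside the shares of all genes is therefore no test of the receptors as a set. For FL against BM lines 3 receptors were called, where 10.3% of all tested genes were. Of these 1 was higher in FL lines (6.01% of all tested genes) and 2 were lower (4.30%). No receptor was called for YS against FL lines, where 3.79% of all tested genes passed, 1.95% with a higher and 1.85% with a lower level in YS lines. In that comparison limma gave 0 of 6 at an unadjusted p under 0.05, and it made 0 calls under each alternative. The 95% intervals of the YS against FL differences were wide, from -1.32 to 1.13 for Cxcr4, from -2.54 to 0.39 for Cxcr3 and from -0.54 to 3.81 for Ccr1, so that they include differences of 2-fold. The groups did not overlap for 5 of the 6 tested receptors between YS and BM lines and for 4 between FL and BM lines, beside 49.0% and 49.5% of all tested genes, and for none between YS and FL lines, beside 26.1%. The median log2 difference over the 6 tested receptors was 1.58 for YS against BM lines and 0.91 for FL against BM lines, where it was 0.11 and 0.09 over all tested genes, and these medians join receptors that moved in opposite directions. Without BM line 2, 4 of 6 were called between YS and BM lines and 2 between FL and BM lines. Without BM line 1, 3 were called between YS and BM lines, and without BM line 3, 2 were, with 0 of them higher in YS lines.

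**Figure D2:**
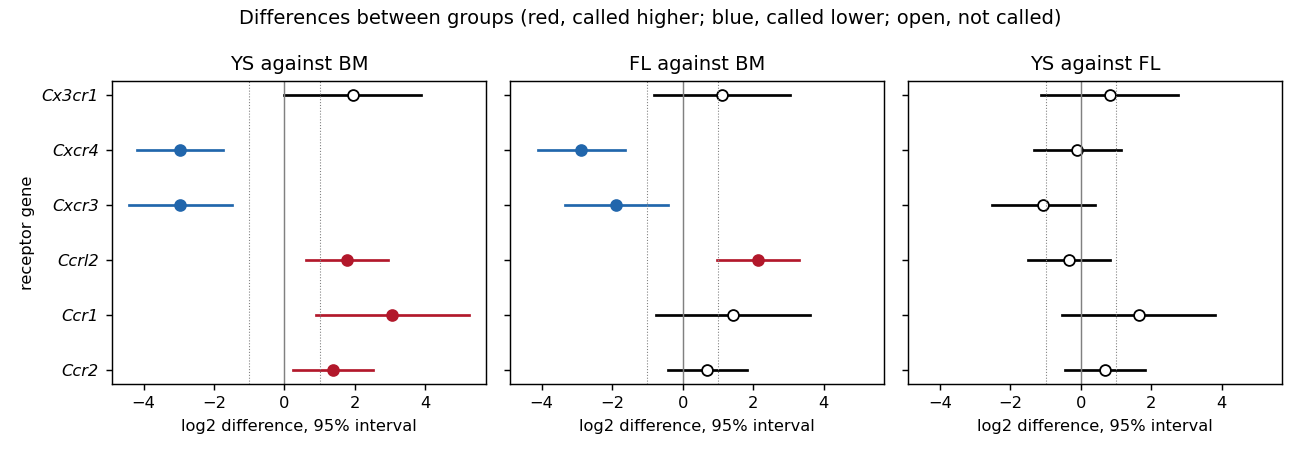
Differences of the 6 tested receptors on the log2(TPM + 1) scale (points) with 95% confidence intervals (lines) for YS against BM, FL against BM and YS against FL lines. Cxcr4 and Cxcr3 are below 0 against BM lines in the first 2 panels, Ccrl2 is above 0 in both, and all 6 intervals span 0 in the panel of YS against FL lines.

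**Figure D3:**
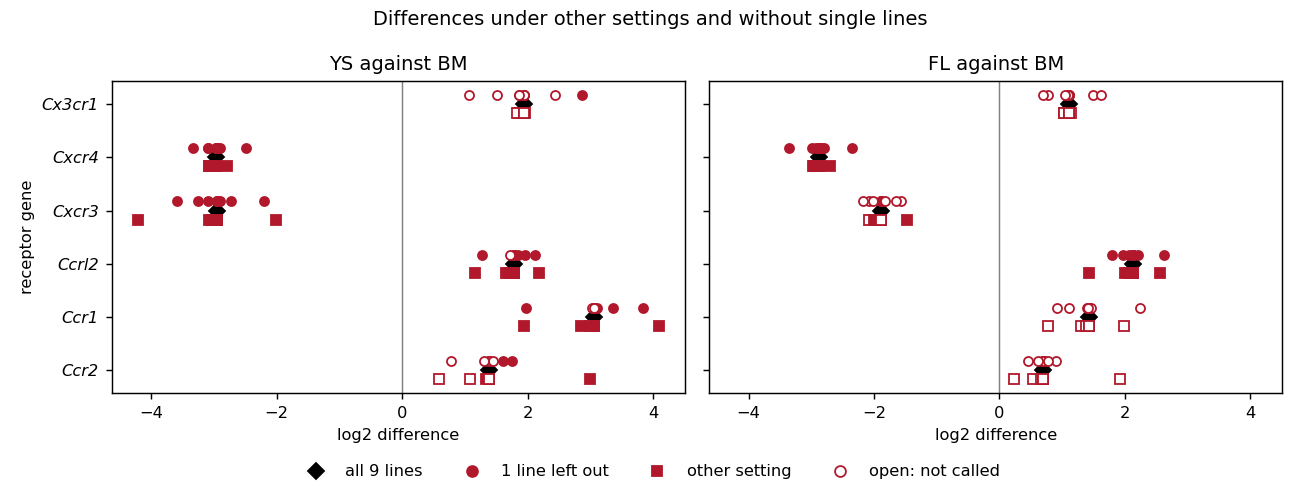
Log2 differences of the 6 tested receptors with all 9 lines (diamonds), with 1 line left out (circles) and under other settings (squares), where open symbols did not pass the test. Cxcr4 symbols are filled throughout, and those of Ccr2 against BM lines are a mix of filled and open in the YS panel and open in the FL panel.

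The levels of the receptors relative to each other also differed, since TPM is scaled per unit of length and can be set side by side between genes. The 8 receptors summed to 547.95, 203.73 and 130.61 TPM in the YS lines, to 142.20, 159.66 and 121.57 TPM in the FL lines and to 242.86, 256.75 and 228.88 TPM in the BM lines. Cx3cr1 made up 89.7%, 79.6% and 30.4% of this sum in YS lines and 61.1%, 84.6% and 40.1% in FL lines, but 14.0%, 29.9% and 8.91% in BM lines. Cxcr4 made up 79.2%, 57.2% and 80.0% in BM lines, and between 6.52% and 36.8% in embryonic lines. The ratio of Cx3cr1 to Cxcr4 was above 1 in all embryonic lines, from 1.09 in FL line 3 to 13.8 in YS line 1, and below 1 in all BM lines, from 0.111 to 0.523. YS line 3 was the exception among YS lines, with Ccr1 as its leading receptor at 44.6% of the sum.

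**Figure D4:**
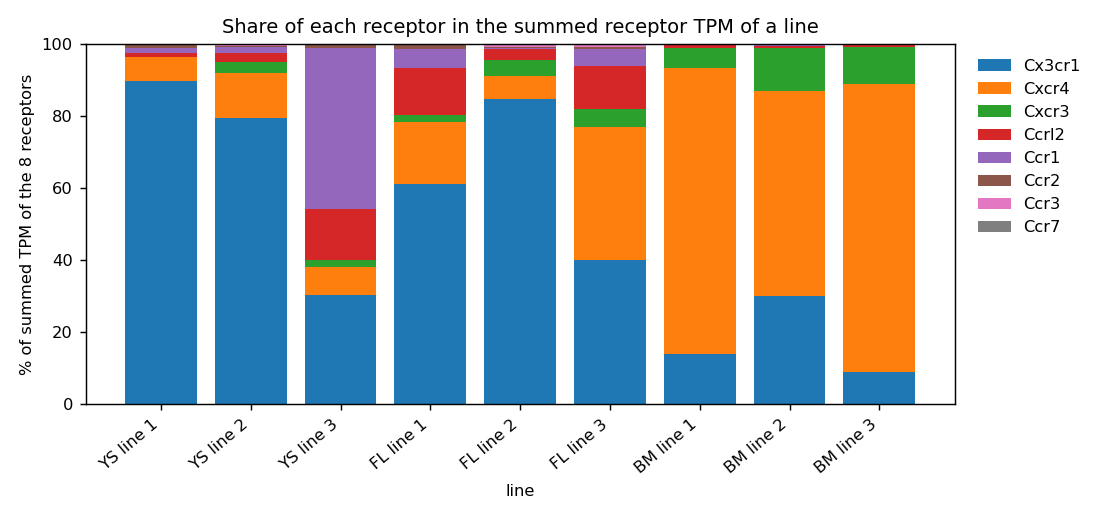
Share of each receptor (colour) in the summed TPM of the 8 receptors, in percent, for each of the 9 lines. Cx3cr1 leads in 5 of the 6 embryonic lines, Ccr1 leads in YS line 3 at 44.6%, and Cxcr4 leads in the 3 BM lines.

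Ccr1, Ccr1l1, Ccr3 and Ccr2 follow each other in this order on chromosome 9 among protein-coding genes in RefSeq, and each was low in BM lines. This row was looked at after the values had been seen. The highest value in a BM line was 0.69 TPM for Ccr1, 0.10 TPM for Ccr1l1, 0.13 TPM for Ccr3 and 0.28 TPM for Ccr2. All YS lines were above all BM lines for Ccr1, Ccr1l1 and Ccr2, and all FL lines were above all BM lines for Ccr1l1, Ccr3 and Ccr2. Over all tested genes, groups did not overlap, in either direction, for 49.0% between YS and BM and 49.5% between FL and BM lines. Ccr3 was not among the tested genes. Of the genes beside Cxcr4 and Ccrl2, Dars, next to Cxcr4, was between 88.84 and 152.7 TPM in every line, Thsd7b on its other side was listed at 0 throughout, and Lrrfip2, next to Ccrl2, was between 35.86 and 50.55 TPM.

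Of the other 18 chemokine receptor genes listed, 14 stayed under 1 TPM in every line, 4 of them listed at 0 throughout (Ackr1, Ackr3, Ccr4 and Cmklr1), and 3 were tested. Of the 75-base stretches of Ccr2, 1.16% also occur in another gene, so a few reads could be divided between genes, while none of those of the other 7 receptors do. Ccr1l1, a close relative of Ccr1, was called higher in FL than in BM lines (1.46, SE 0.26, adjusted p = 0.00568), with 2.41, 1.3 and 1.92 TPM in the FL lines and at most 0.10 TPM in a BM line. It entered the test through the 3 FL lines and YS line 3, as no other line reached 1 TPM. Ccr10, a receptor of epithelial chemokines, was 3.48 to 7.02 TPM in all lines and was not called.

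Most of the tested ligands of the 8 receptors were higher in YS lines than in BM lines. Of 22 ligand genes, 12 were tested, and the other 10 stayed under 1 TPM in every line. Against BM lines, 9 of the 12 were higher in YS lines, beside 7.57% of all tested genes, and 5 in FL lines, beside 6.01%, with none lower. Among those 9, Ccl24 and Cx3cl1 reached 1 TPM in embryonic lines only, with at most 0.36 and 0.84 TPM in a BM line. They thus entered the test through the groups where they are higher. Against FL lines, 2 were higher in YS lines, beside 1.95% of all tested genes, and none was lower. The median log2 difference of the 12 was 2.17, 1.61 and 0.90 in these comparisons, beside 0.11, 0.09 and 0.02 over all tested genes. The ligands called for YS against BM lines fell to 5 without BM line 1 and to 6 without BM line 3, and were 9 without BM line 2. Without YS line 3, 7 were higher and 1 was lower than in BM lines, and 1 was higher and 2 were lower than in FL lines. Without YS line 1, the ligands higher in YS lines were 10 against BM lines and 4 against FL lines, and without FL line 1, 1 was lower in YS than in FL lines. A single ligand was called in YS against FL lines without FL line 2, FL line 3 or BM line 1.

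Of the ligands of Ccr2, Ccl2 was abundant in every line and Ccl7 and Ccl12 in some lines, although Ccr2 itself was low. Ccl8, another of its ligands, was at most 0.39 TPM in any line. Ccl2, the main attractant of monocytes, was 1177.82 TPM in YS line 3 and 1259.11 and 1082.92 TPM in FL lines 1 and 3, against 111.73 to 425.36 TPM in the other embryonic lines and 223.73 to 303.22 TPM in the BM lines. With all lines in the fit, Ccl2 was called in no comparison (adjusted p = 0.208 for FL against BM lines). For Ccl12, the YS lines had 11.16, 82.86 and 1317.07 TPM and the FL lines 847.54, 86.99 and 498.85 TPM, while BM line 1 was listed at 0 and BM lines 2 and 3 had 8.85 and 0.63 TPM. The log2 difference of Ccl12 was 7.05 (SE 1.65, adjusted p = 0.0186) for FL and 5.45 (adjusted p = 0.0396) for YS against BM lines, and Ccl7 rose by 4.46 (SE 1.03, adjusted p = 0.0179) in FL against BM lines. For YS against BM lines Ccl7 did not pass (2.47, adjusted p = 0.1055). The lines highest in Ccl2, Ccl7 and Ccl12, which were YS line 3 and FL lines 1 and 3, were also the highest in Ccrl2. The ligands of Ccr1 were detected in all lines: Ccl9 was 246.32 to 582.53 TPM with no call, and Ccl3 was 445.22 to 591.25 TPM in YS lines and 197.73 to 287.5 TPM elsewhere. Ccl4, an attractant of monocytes and T cells, rose by 3.07 (SE 0.26, adjusted p = 0.000448) in YS against BM lines. Ccl5 rose by 4.57 (adjusted p = 0.0142) in YS against BM lines and by 3.39 (adjusted p = 0.0501) in FL against BM lines. Both differences were called, although FL and BM lines overlapped, with 16.63 TPM in FL line 2 and 20.27 TPM in BM line 2. BM lines 1 and 3 had 1.27 and 2.54 TPM.

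For Cx3cr1, Cxcr3, Cxcr4 and Ccrl2, ligand and receptor can be set side by side. Cx3cl1, the fractalkine ligand, had 4.36, 7.01 and 26.69 TPM in the YS lines, 5.02, 0.17 and 0.77 TPM in the FL lines and at most 0.84 TPM in a BM line, and was higher in YS than in BM lines (log2 difference 3.07, SE 0.73, adjusted p = 0.0171), having entered the test through the YS lines and FL line 1. Among YS lines it was highest in line 3, where Cx3cr1 was lowest. Cxcl10, an interferon-induced ligand of Cxcr3, had 66.68, 351.19 and 589.07 TPM in the YS lines against 18.47, 53.52 and 10.91 TPM in the BM lines (3.37, SE 1.02, adjusted p = 0.04), whereas Cxcr3 was lower in YS lines. Cxcl12, the ligand of Cxcr4, was at most 0.24 TPM in any line, and chemerin (Rarres2), the ligand of Ccrl2, and the Ccl21 genes that encode Ccr7 ligands were listed at 0 in all 9 lines.

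**Figure D5:**
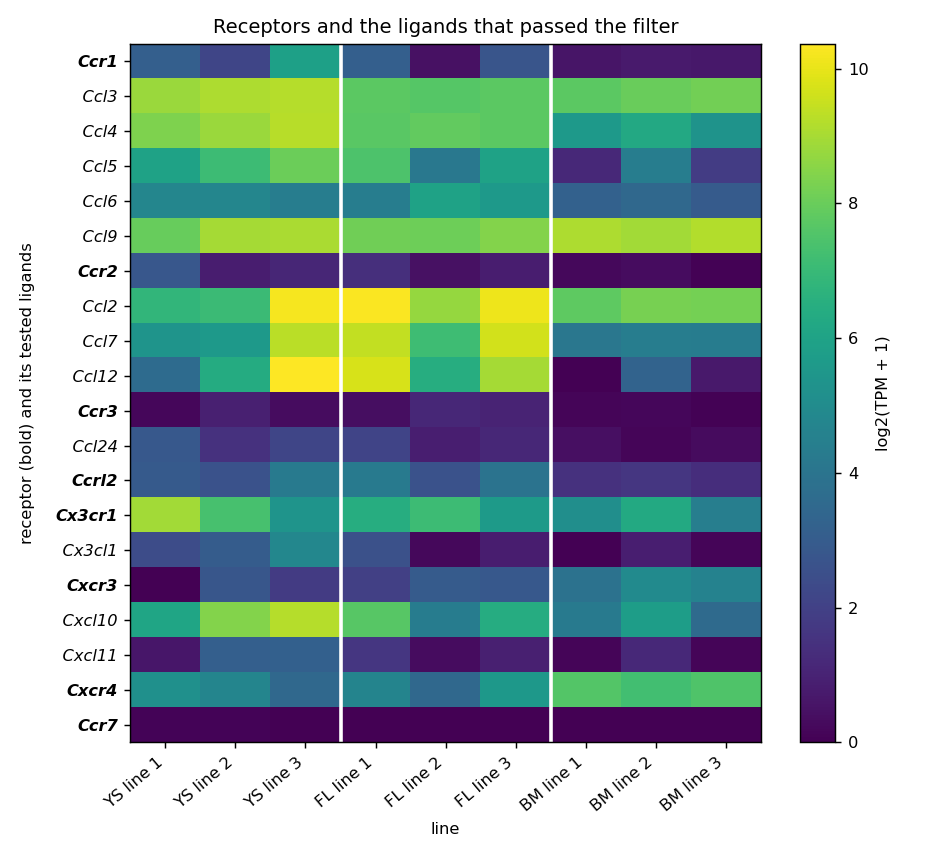
Heat map of log2(TPM + 1) for the 8 receptors (bold) and, below each, its ligands that passed the filter, in the 9 lines, with white bars between the groups. Ccl2, Ccl7 and Ccl12 are brightest in YS line 3 and FL lines 1 and 3, and Cxcr4 is brightest in BM lines.

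Genes that carry the receptor signal to the cell's movement, or that turn it off, were called at a share near that of all tested genes. Of 30 listed G protein, phosphoinositide kinase, Rac exchange, arrestin and receptor kinase genes found in the table, 28 were tested. Against BM lines, 4 were called in YS lines, 1 higher and 3 lower, where 12.8% of all tested genes were called. In FL lines 3 were called, 1 higher and 2 lower, where 10.3% were. For YS against FL lines limma called 0, with 6 at an unadjusted p under 0.05. Without BM line 2, the genes called in YS lines were 2 higher and 2 lower than in BM lines, and 2 genes, both lower, were called without YS line 3, BM line 1 or BM line 3. With median-of-ratios scaling, 0 genes of the list were called higher in YS than in BM lines. The median log2 difference of the 28 was 0.14, 0.12 and -0.02. Arrb2, encoding beta-arrestin that uncouples and internalises receptors, had 304.4, 477.2 and 534.02 TPM in the YS lines, 525.73, 467.49 and 430.95 TPM in the FL lines and 181.04, 254.85 and 178.14 TPM in the BM lines (log2 difference 1.08, adjusted p = 0.0108, for YS lines and 1.23, adjusted p = 0.00692, for FL lines). Grk5, a kinase that phosphorylates active receptors, was 10.09 to 11.6 TPM in BM lines and 2.03 to 4.79 TPM in embryonic lines (-1.69, adjusted p = 0.0017, for YS lines and -1.27, adjusted p = 0.00379, for FL lines). Pik3r5, a regulatory subunit of the phosphoinositide kinase activated by G protein beta-gamma subunits, was 106.46 to 154.81 TPM in BM lines and 47.07 to 64.75 TPM in embryonic lines (-1.18, adjusted p = 0.0035, and -1.23, adjusted p = 0.00283). Adrbk2, another receptor kinase gene, was lower in YS than in BM lines (-2.42, SE 0.93, adjusted p = 0.084). In FL lines Adrbk2 did not pass (-2.03, adjusted p = 0.165), and Adrbk1 and Grk6, also receptor kinase genes, were called in neither comparison.

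The genes most like each receptor over the 9 libraries were found by Pearson's r of log2(TPM + 1), as a description, since the libraries of a group share their origin. For Cxcr4 they were Lims2 (r = 0.982), Tbc1d15 (0.972) and Egr2 (0.967), and Lims2 was 232.55, 207.38 and 219.62 TPM in BM lines and at most 24.48 TPM in embryonic lines. For Cxcr3 they were Esd (0.973), Xrcc4 (0.966) and Agap1 (0.965), and for Ccrl2 Rcbtb1 (0.983), Camta1 (0.975) and Ggct (0.973). Those of Ccr1 were Cox18 (0.986) and Top3a (0.985), each highest in YS line 3, and those of Ccr2 were Rpia (0.984), Rsl1d1 (0.983) and Ptbp1 (0.982), each highest in YS line 1. For Cx3cr1 they were Zfp629 (0.973), Mrpl34 (0.965) and Zfp330 (0.959), also highest in YS line 1. Among the receptors themselves, Ccr1 and Ccrl2 went together (r = 0.827, n = 9 libraries), as did Ccr2 and Cx3cr1 (0.76), while Ccr2 and Cxcr3 ran in opposite directions (-0.932).

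Markers of other cell types were examined beside these differences, as dendritic cells, eosinophils, neutrophils and B cells also carry such receptors. The 6 dendritic cell markers summed to 7.57 to 9.4 TPM for YS, 3.05 to 7.87 TPM for FL and 3.53 to 4.1 TPM for BM lines. Of these 6, 4 stayed under 1 TPM in every line, among them Flt3 and Cd209a, listed at 0 throughout. The remaining markers reached 1 TPM in at least 1 line, and the part of such cells was not tested. The 8 markers of eosinophils, mast cells and basophils summed to at most 1.76 TPM in any line, and the 4 B cell markers were each under 1 TPM. Of the neutrophil markers, 3 were listed at 0, and the 5 in the table summed to 10.49 to 25.11 TPM in FL lines, at most 2.19 TPM in YS lines and 3.49 to 5.0 TPM in BM lines. The 3 endothelial markers summed to 21.94 to 55.71 TPM for YS, 18.85 to 51.68 TPM for FL and 0.14 to 2.64 TPM for BM lines, higher in the same groups as Ccrl2, and their part in that difference was not tested. Erythroid markers reached 215.35 TPM in BM line 2, from Hba-a1, and at most 9.1 TPM in the embryonic lines.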

How the data were processed

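RNA was measured in 9 poly(A)-selected stranded libraries, 1 for each line, as single reads of 75 nt. The deposited table gives TPM for 24411 gene symbols to 2 decimals, made by the authors; the submitters' processing notes name Trim Galore 0.6.6, STAR 2.7.9a and RSEM 1.3.3, without their roles. The genome build and annotation are not given in the sources used here. TPM is divided by transcript length and has a fixed total per library, so depth is lost, no counting error can be given, and the read counts of the study were not used here.

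Lines were grouped by the origin in the labels. Values were taken as log2(TPM + 1), and the 11753 genes with 1 TPM or more in 3 or more of the 9 libraries were fitted jointly with limma 3.58.1 (R 4.3.3), with moderated variances that follow the mean level. P-values were adjusted by the method of Benjamini and Hochberg over all tested genes of a comparison, and calls needed a false discovery rate below 0.1 together with a difference above 2-fold. Data were simulated with 200 of 11753 genes changed 4-fold between YS and BM lines, drawn from genes with a mean log2(TPM + 1) above 3. Of these, 93.5% were recovered, and 5.56% of calls were false. Ccr1, Ccr2, Ccrl2 and Cxcr3 lie below that mean, so the recovered share does not cover them. Between FL and BM lines, simulated without any change in the same set, 0 genes were called. Single values were also compared by exact two-sided permutation tests (Python 3.11.15, scipy 1.17.1).

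All 8 receptors are named with their values. From the lists of other receptors, ligands and coupling genes, values are given for ligands of the receptors described and for called genes, at most 4 per list and comparison; likeness names the 3 tested genes with the highest r, of which 1 is not reported here, like some other listed genes. The receptors and lists were chosen with earlier results of these data known, and Cxcr4 neighbours and marker genes are given as context. Shared 75-base stretches and overlapping exons were looked up in GENCODE M21 on GRCm38, promoters and gene order in RefSeq on GRCm38.p6; the promoter table held 7 of the 8 receptors. Pseudocounts of 0.1 and 4, no filter, a filter of 5 TPM, other scalings, thresholds and variance models, fits of only the groups compared, a replicate block and the omission of each line were tried as alternatives. The labels do not say that line numbers pair lines across groups, so the block is an alternative only.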

Additional observations from a re-analysis of the deposited data

How the results depend on the processing

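Of 339 values of single genes under an alternative, 315 kept their direction and their side of the threshold, 19 lost the call, 2 gained it and 3 turned direction, none of the last 3 called. All were log2 differences between YS and FL lines with 1 line left out: Cx3cr1 ranged from -0.046 (without YS line 1) to 1.75 (without YS line 3), and Cxcr4 from -0.62 (without FL line 2) to 0.39 (without YS line 3), with 0.38 without FL line 3. The number of receptors called between YS and BM lines was 2 to 6 with 1 line left out (2 without BM line 3, with 0 higher, 3 without BM line 1, 4 without BM line 2) and 4 to 6 under the other settings, and between FL and BM lines it was 2 to 3 in either case; the cause was not tested. Between YS and FL lines it was 0 throughout. With the replicate block, 6 receptors were called between YS and BM lines and 3 between FL and BM lines, since Cx3cr1 then passed (adjusted p = 0.0531). Same-numbered lines of different groups showed little shared deviation over all tested genes (r from -0.118 to 0.088). Such values cannot exclude a pairing, and the labels do not name one. Ccr2 between YS and BM lines lost its call with a pseudocount of 4, with quantile normalization (log2 difference 1.08, adjusted p = 0.182), at a false discovery rate under 0.05 and without YS line 1 or any BM line, and it could not be fitted with a filter of 5 TPM. Median-of-ratios scaling moved the median log2 difference of all genes from 0.108 to 0.0041 for YS against BM lines, and Cxcr4 from -2.97 to -3.08, with the same receptors called. The files carry no depth, so it is unknown how far read number limits Ccr2, Ccr3 and Ccr7.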
